A study of Mus musculus with 11 samples.

Results

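The genes described here make fatty acids and cholesterol, together with the regulators that set their transcription through the SREBP factors. They were taken from a list of 33 genes matched by annotated gene symbol, with the probe of highest mean kept for each gene. A probe with a single gene symbol was found for 30 of them, out of 19057 genes on the array: 13 of 13 in the fatty acid branch, 12 of 15 in the cholesterol branch, and all 5 SREBP regulators. Acat2, Hmgcs1 and Fdft1 were not matched to a probe, so no expression value is given for them. Expression was measured in mammary tumours that arose in female mice killed at 12 weeks of age, with 1 array for each of 6 PyMT tumours and 5 PyMT/SIRT6 tumours. All 11 tumours carried the PyMT transgene, the polyoma virus middle T oncogene. The PyMT/SIRT6 tumours also carried the Sirt6BAC allele, which overexpresses functional SIRT6 protein, a deacylase of chromatin, and the PyMT tumours were wild-type for it. The labels do not name the promoter of the oncogene, the cells in which either transgene is active, the strain or how many tumours came from a mouse, so a p-value here reflects the spread among these tumours, which may be partly technical. Tumours are numbered within each genotype in deposit order, which pairs no samples.

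SREBP-1 and SREBP-2, the products of Srebf1 and Srebf2, are made as membrane proteins of the endoplasmic reticulum. SCAP carries them to the Golgi, where they are cut to release the active factor, while INSIG-1 and INSIG-2 hold the complex back when sterols are plentiful. SREBP-1 acts mainly on fatty acid synthesis and SREBP-2 mainly on cholesterol synthesis and uptake. In the mammary gland the fatty acid enzymes rise with lactation to supply milk fat, and fat cells of the surrounding pad use the same enzymes.

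SREBPs bind sterol regulatory elements and usually act with NF-Y, which binds the CCAAT box. The RefSeq promoter table (GRCm38.p6) held 36 windows of 300 bases, from 250 before to 50 after an annotated start, for 27 of the 33 genes. The 250 bases before the start are printed for a few genes. Acss2 and Acacb are fatty acid members that were high in the same 2 tumours, Mvd and Cyp51 are the pair of cholesterol members whose levels followed each other most closely, and Srebf2 is the regulator whose window holds the core of a sterol element. Capitals mark CCAAT on either strand (ATTGG on the printed strand where the box lies on the other) and, in Srebf2, the sterol element core.
Acss2, chr2:155517793-155518042, plus strand: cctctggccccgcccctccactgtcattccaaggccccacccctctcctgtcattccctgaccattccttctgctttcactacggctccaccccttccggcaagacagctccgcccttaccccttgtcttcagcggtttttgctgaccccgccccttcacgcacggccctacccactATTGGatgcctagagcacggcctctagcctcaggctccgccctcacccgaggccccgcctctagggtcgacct
Acacb, chr5:114165268-114165517, plus strand: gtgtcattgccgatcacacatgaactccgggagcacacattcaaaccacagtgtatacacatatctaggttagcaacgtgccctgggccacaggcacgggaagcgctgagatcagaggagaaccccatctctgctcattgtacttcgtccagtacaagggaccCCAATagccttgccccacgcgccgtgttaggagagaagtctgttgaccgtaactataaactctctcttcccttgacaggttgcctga
Mvd, chr8:122443423-122443672, minus strand: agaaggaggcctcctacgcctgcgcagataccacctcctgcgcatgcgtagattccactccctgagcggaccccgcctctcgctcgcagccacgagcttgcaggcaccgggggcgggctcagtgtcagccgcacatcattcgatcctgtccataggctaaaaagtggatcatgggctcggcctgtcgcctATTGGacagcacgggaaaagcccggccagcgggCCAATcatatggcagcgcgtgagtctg
Cyp51, chr5:4104698-4104947, minus strand: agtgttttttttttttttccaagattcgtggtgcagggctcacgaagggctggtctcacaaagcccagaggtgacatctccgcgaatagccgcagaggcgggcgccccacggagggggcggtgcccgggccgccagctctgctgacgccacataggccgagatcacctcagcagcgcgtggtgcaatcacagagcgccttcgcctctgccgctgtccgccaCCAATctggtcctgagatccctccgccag
Srebf2, chr15:82147019-82147268, plus strand: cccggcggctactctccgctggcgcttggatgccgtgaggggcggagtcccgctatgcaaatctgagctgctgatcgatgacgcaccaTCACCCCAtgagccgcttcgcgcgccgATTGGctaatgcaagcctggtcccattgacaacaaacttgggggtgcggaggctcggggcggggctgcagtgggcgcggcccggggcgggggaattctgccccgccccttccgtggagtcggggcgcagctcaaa

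CCAAT, read on both strands, occurred in 23 of the 36 windows (63.9%), against 12289 of all 32851 windows in the table (37.4%). By branch it occurred in 7 of 11 fatty acid windows (63.6%), 11 of 15 cholesterol windows (73.3%) and 5 of 10 regulator windows. All but 1 of the 12 cholesterol genes with a window had CCAAT in at least 1 of them. In Mvd it occurred at 2 places, once on each strand. The E-box CACGTG, also bound by SREBP-1, occurred in 7 of 36 windows (19.4%) against 7.15% of all windows. The sterol element core TCACNCCA occurred in 2 of 36 windows (5.56%) against 4.36% of all, those of Hmgcs1 and Srebf2. These are matches of letters in a short window, and windows of 1 gene can overlap.

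Values are given on the log2 scale of the deposited intensities, whose quantiles were shared by all arrays and in which no background subtraction was visible, so differences of dim probes are understated. Sirt6 was at 7.64 to 7.88 (median 7.78) in PyMT tumours and at 8.49, 8.64, 8.31, 8.19 and 8.23 in PyMT/SIRT6 tumours 1 to 5. The genotypes did not overlap, and the difference was 0.61 ± 0.09 (limma SE; limma adjusted p = 0.0574; two-sided exact permutation p = 0.004329, the smallest this test can give here). The epithelial keratins were bright in every tumour, Krt8 at 12.23 to 13.40 and Krt18 at 11.04 to 12.00, while the probe for Epcam stayed between 7.15 and 7.35. Skeletal muscle markers stood apart in 4 tumours, PyMT tumour 5 and PyMT/SIRT6 tumours 1, 4 and 5, where the mean of the 14 markers with a probe was 10.20 to 12.11 against 7.42 to 8.51 in the other 7. Adipocyte markers (13 of 15 with a probe, 8 past the filter) were highest in PyMT tumours 4 and 5: the list mean was 8.24 and 8.23 there, while PyMT tumours as a group spanned 7.34 to 8.24 and PyMT/SIRT6 tumours 7.38 to 8.14. Adipoq ran from 7.52 to 10.39, while the Fabp4 probe stayed between 7.14 and 7.29, near the dimmest values of the arrays. In bulk tumour RNA, fewer cells of a type and less RNA per cell cannot be told apart.

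Over all 11 tumours the members of the fatty acid branch varied more than those of the cholesterol branch. The standard deviation over the 11 tumours had a median of 0.34 among the 12 fatty acid members that passed the filter on dim features, 0.18 among the 11 cholesterol members and 0.23 among the 5 regulators, against 0.13 over all 14726 features kept. That filter left out the dimmer 50% of features, and with them Acaca, the cytosolic acetyl-CoA carboxylase (7.11 to 7.29), and Idi1, an isomerase of the mevalonate pathway (7.18 to 7.33). For the branch means the order turned with genotype. The mean of the centred members had a standard deviation of 0.31 (fatty acid) and 0.07 (cholesterol) over PyMT tumours. Over PyMT/SIRT6 tumours it was 0.05 and 0.16. Many cholesterol probes were dim, and the spread of dim probes is understated. In the heat map of the members, the fatty acid block has most of its high values in PyMT tumours 4 and 5, while the cholesterol block is paler and has most of its high values in PyMT/SIRT6 tumours 2 and 3.

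**Figure D1:**
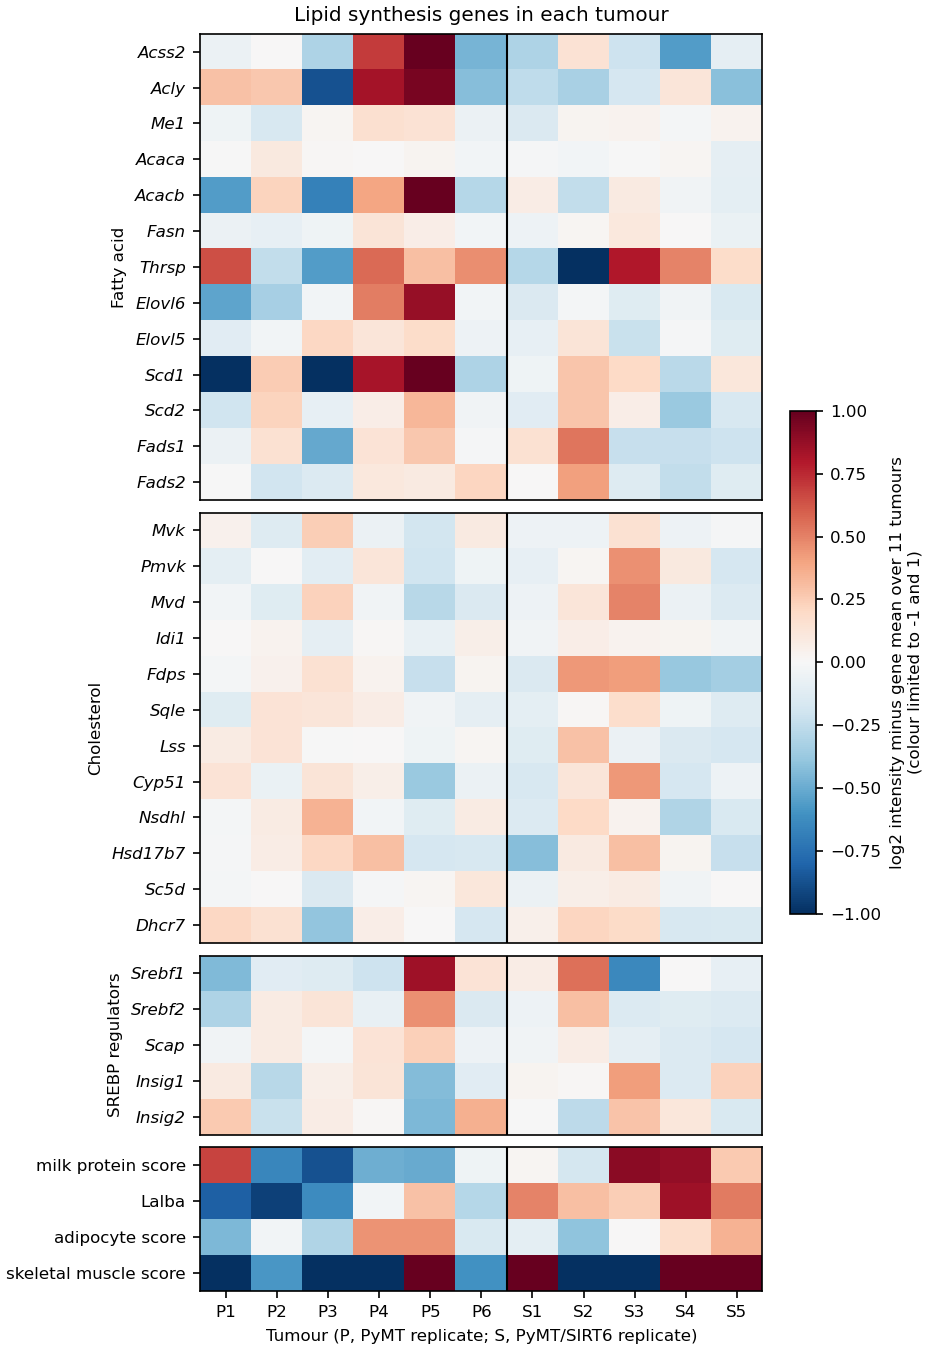
Log2 intensity of the 30 genes in each of the 11 tumours, shown as the difference from the gene's mean over all tumours, with milk, adipocyte and muscle marker levels at the bottom (colours stop at 1 above and 1 below the mean). Of the 13 fatty acid members 6 have their 2 highest values in PyMT tumours 4 and 5, and Fdps and Nsdhl have their lowest in the 4 tumours with high skeletal muscle markers.

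The enzymes that supply acetyl-CoA were high in PyMT tumours 4 and 5. Acss2, which makes cytosolic acetyl-CoA from acetate, was at 9.16, 9.22, 8.91, 9.92, 10.37 and 8.75 in PyMT tumours 1 to 6 and at 8.91, 9.36, 9.01, 8.66 and 9.13 in PyMT/SIRT6 tumours 1 to 5. Acly, ATP citrate lyase, which makes it from citrate, was at 12.22, 12.19, 11.05, 12.75, 12.87 and 11.50 and at 11.67, 11.60, 11.76, 12.04 and 11.50. For both genes PyMT tumours 4 and 5 exceeded the other 9 tumours, and the genotypes overlapped. From the lowest to the highest tumour, intensity differed 3.28-fold for Acss2 and 3.54-fold for Acly. Me1, malic enzyme, a source of NADPH for the pathway, was at 7.52 to 7.84 in PyMT tumours and 7.54 to 7.72 in PyMT/SIRT6 tumours, again with PyMT tumours 4 and 5 on top.

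Carboxylation and chain synthesis followed with an uneven picture. Acacb, the mitochondrial acetyl-CoA carboxylase, whose product also restrains fatty acid oxidation, was at 7.53, 8.31, 7.41, 8.48, 9.20 and 7.80 in PyMT tumours and at 8.16, 7.84, 8.18, 8.05 and 7.99 in PyMT/SIRT6 tumours. The PyMT tumours spread on both sides of the PyMT/SIRT6 tumours, which lay within 0.34 of each other. Fasn, the synthase itself, was read by a dim probe that ran from 7.26 to 7.47 in all tumours, so its spread is barely measured here. Thrsp, Spot 14, a lipogenic protein of liver, fat and lactating mammary gland, had the widest range of all members. It was at 12.36, 11.47, 11.16, 12.28, 12.02 and 12.18 in PyMT tumours and at 11.43, 9.35, 12.51, 12.21 and 11.90 in PyMT/SIRT6 tumours, an 8.95-fold range of intensity set by PyMT/SIRT6 tumour 2.

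Of the enzymes that modify the finished chain, Scd1 and Elovl6 resembled Acacb. Scd1, the desaturase that makes oleate, was at 11.05, 12.51, 11.23, 13.07, 13.44 and 11.94 in PyMT tumours and at 12.21, 12.53, 12.45, 11.98 and 12.36 in PyMT/SIRT6 tumours. Elovl6, which lengthens palmitate to stearate, was at 8.46, 8.65, 8.96, 9.50, 9.85 and 8.96 and at 8.84, 8.97, 8.87, 8.95 and 8.83. In both genes the 5 PyMT/SIRT6 tumours fell inside the PyMT range. Elovl5, the elongase of polyunsaturated chains, moved little, from 10.86 to 11.18 (median 11.02) in PyMT tumours and at 10.89, 11.10, 10.75, 10.96 and 10.85 in PyMT/SIRT6 tumours. Scd2, a desaturase isoform, ran from 7.92 to 8.45 (median 8.13) in PyMT tumours and was at 8.01, 8.39, 8.18, 7.75 and 7.96 in PyMT/SIRT6 tumours. The desaturases of polyunsaturated fatty acids did not follow that pattern: Fads1 and Fads2 were highest in PyMT/SIRT6 tumour 2, at 12.17 and 8.67, where Thrsp was lowest.

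PyMT tumours 4 and 5 were thus the 2 highest for 6 fatty acid members (Acss2, Acly, Me1, Acacb, Elovl6 and Scd1) and for 0 of 12 cholesterol members. Over all features 272 had this pattern, or 1.85%. The pattern was chosen after these values were seen. The mean of the centred members, called the fatty acid score, was 0.35 and 0.51 in those tumours, −0.31 to 0.01 in the other 4 PyMT tumours and −0.09 to 0.02 in the PyMT/SIRT6 tumours.

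In the cholesterol branch, among the early enzymes of the mevalonate pathway, Pmvk and Mvd were highest in PyMT/SIRT6 tumour 3. Mvk and Pmvk add phosphates to mevalonate, and Mvd then removes a carboxyl group to give isopentenyl pyrophosphate. Pmvk was at 7.82 to 8.14 (median 7.95) in PyMT tumours and at 7.94, 8.03, 8.47, 8.12 and 7.85 in PyMT/SIRT6 tumours. Mvd was at 8.15, 8.06, 8.41, 8.14, 7.90 and 8.03 in PyMT tumours and at 8.12, 8.29, 8.67, 8.11 and 8.03 in PyMT/SIRT6 tumours. Tumour 3 was the highest of all 11 for both, and the remaining tumours of the genotypes overlapped. Mvk was at 7.57 to 7.99 in PyMT tumours, highest in PyMT tumour 3, and 7.70 to 7.90 in PyMT/SIRT6 tumours. Fdps, which joins the isoprene units into farnesyl pyrophosphate, was at 11.00, 11.06, 11.17, 11.06, 10.79 and 11.05 in PyMT tumours and at 10.88, 11.46, 11.44, 10.64 and 10.68 in PyMT/SIRT6 tumours, of which tumours 2 and 3 were the highest of all.

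The later enzymes turn squalene into cholesterol, and their ranges over the tumours were from 0.26 for Sc5d to 0.80 for Cyp51, much like those of Mvk (0.42) and Mvd (0.77). Sqle, squalene epoxidase, ran from 10.04 to 10.34 over all tumours. Lss, which closes the sterol rings, was at 8.01 to 8.19 (median 8.06) in PyMT tumours and at 7.93, 8.34, 7.99, 7.90 and 7.88 in PyMT/SIRT6 tumours, where tumour 2 stood above the other 4. Cyp51, the lanosterol demethylase, was at 8.73, 8.53, 8.73, 8.65, 8.23 and 8.53 and at 8.43, 8.71, 9.03, 8.43 and 8.55. Nsdhl, a sterol dehydrogenase, was at 8.37, 8.47, 8.73, 8.36, 8.27 and 8.47 and at 8.25, 8.59, 8.42, 8.09 and 8.23. For Cyp51 the lowest tumour was PyMT tumour 5, and for Nsdhl it was PyMT/SIRT6 tumour 4, both high in muscle markers. Hsd17b7, a reductase of the same steps, ran from 8.82 to 9.56, Sc5d, the desaturase before the last reduction, from 7.28 to 7.54, and Dhcr7, the last enzyme, from 7.83 to 8.44.

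The cholesterol score was lowest in the 4 tumours with high skeletal muscle markers, at −0.14 in PyMT tumour 5 and −0.11, −0.10 and −0.13 in PyMT/SIRT6 tumours 1, 4 and 5. It was −0.02 to 0.23 in the other 7, with no overlap. Fdps and Nsdhl had all 4 of these tumours at the bottom, as did 161 of all features (1.09%). With the muscle score in place of the milk score in a model with genotype, 11 of 11 tested cholesterol members had a negative slope, against 54.5% of all features. None passed limma's adjusted threshold of 0.05, where 0.998% of all features did. At an unadjusted p under 0.05 there were 6 (9.54% of all features), led by Cyp51 at −0.11 ± 0.03 per unit of the score (limma adjusted p = 0.109) and Fdps at −0.13 ± 0.03 (limma adjusted p = 0.127). Within the 7 tumours low in muscle markers 7 of 11 slopes were negative and 0 had an unadjusted p under 0.05. Some other lists shared this direction. Over 11 tumours r with the muscle score was negative for 11 of 11 cholesterol members and 54.6% of all features. It was negative for 9 of 9 mitosis genes, 7 of 8 basal epithelial markers and 11 of 12 further genes that control SREBP. Of 10 further genes of cholesterol synthesis, uptake and efflux 3 had a negative r, as did 3 of 12 fatty acid members. The part of muscle tissue in the level of the cholesterol members was not tested.

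The regulators fell into 2 sets with opposite patterns over the tumours. Srebf1 was at 8.57, 8.90, 8.88, 8.80, 9.86 and 9.15 in PyMT tumours and at 9.08, 9.56, 8.37, 9.01 and 8.93 in PyMT/SIRT6 tumours. Srebf2 was at 8.23, 8.62, 8.67, 8.47, 9.00 and 8.40 and at 8.49, 8.84, 8.40, 8.42 and 8.41. Both were highest in PyMT tumour 5 and next highest in PyMT/SIRT6 tumour 2. Scap was at 8.21, 8.33, 8.23, 8.38, 8.49 and 8.19 and at 8.21, 8.32, 8.15, 8.11 and 8.08, also with PyMT tumour 5 on top.

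Insig1, itself a sterol-responsive SREBP target, was at 8.60, 8.23, 8.57, 8.63, 8.08 and 8.40 in PyMT tumours and at 8.53, 8.52, 8.93, 8.37 and 8.74 in PyMT/SIRT6 tumours. Insig2 was at 9.69, 9.21, 9.50, 9.44, 8.98 and 9.78 and at 9.43, 9.17, 9.72, 9.55 and 9.28. Both were lowest in PyMT tumour 5, the tumour with the highest Srebf1, Srebf2 and Scap. Over the 11 tumours, which share arrays and normalization, Pearson's r was 0.81 for Srebf1 with Srebf2, 0.73 for Srebf2 with Scap and 0.53 for Insig1 with Insig2. It was −0.72 for Srebf1 with Insig1 and −0.81 for Srebf2 with Insig2, and all 6 pairs across the sets were negative. The median of the 10 pairs was −0.58, and −0.29 without PyMT tumour 5. That tumour also had the highest skeletal muscle score. Over 11 tumours r with the muscle score was 0.52 for Srebf1, 0.25 for Srebf2 and −0.03 for Scap. For Insig1 and Insig2 it was −0.42 and −0.51. The part of muscle tissue in this split was not tested.

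The members were tied more closely within a branch than between branches over all 11 tumours, but for the fatty acid branch that contrast was lost without 2 of them. The median pairwise r was 0.44 within the fatty acid branch (60 of 66 pairs positive), 0.44 within the cholesterol branch (47 of 55) and −0.02 between them (63 of 132), against 0.00 over all 108420175 pairs of features. The closest pairs were Acacb with Scd1 at 0.90 and Mvd with Cyp51 at 0.89. Without PyMT tumours 4 and 5 the median was 0.09 within the fatty acid branch and 0.14 between the branches, while within the cholesterol branch it was 0.43. Without the 4 tumours high in muscle markers the cholesterol median was 0.25.

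None of the 28 tested members passed the test between genotypes. In limma's comparison of PyMT/SIRT6 with PyMT tumours 0 members passed the adjusted threshold, where 2 of 14726 features did (0.0136%), and 0 had an unadjusted p under 0.05, where 653 did (4.43%). The smallest adjusted p among members was 0.983. For none of the 30 genes were the genotypes separated, which held for 0.292% of all features in the higher direction and 0.197% in the lower. The medians of the differences, PyMT/SIRT6 minus PyMT, were −0.09 for the fatty acid branch (3 members higher, 9 lower), −0.0026 for the cholesterol branch (5 higher, 6 lower) and −0.04 for the regulators (1 higher, 4 lower), beside −0.0053 over all features, of which 46.9% were higher. Without PyMT tumours 4 and 5 the fatty acid median was 0.03, and without the 4 tumours high in muscle markers it was 0.07 and the cholesterol median 0.12.

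**Figure D2:**
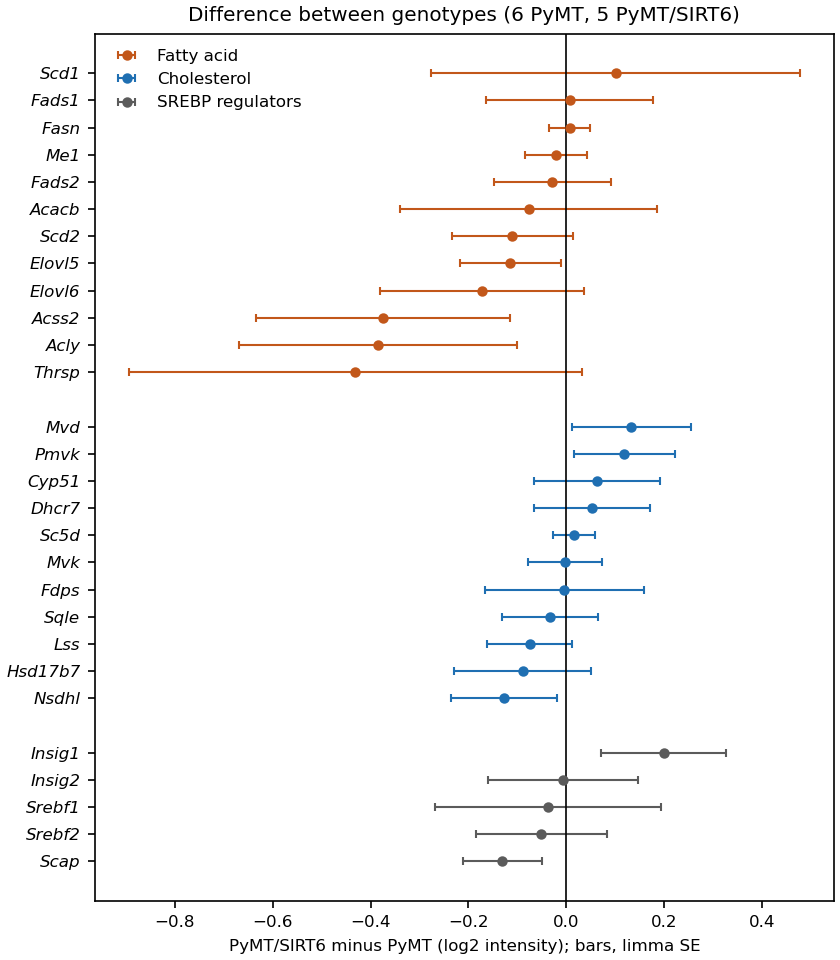
Difference between 5 PyMT/SIRT6 and 6 PyMT tumours for the 28 tested genes (log2 intensity; bars, limma's standard error). Points lie on both sides of 0 in each branch, and the widest bars belong to Thrsp and Scd1.

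The members with the smallest unadjusted p showed how wide the errors were. Acss2 differed by −0.37 ± 0.26 (limma SE), Acly by −0.38 ± 0.28 and Thrsp by −0.43 ± 0.46, each with limma adjusted p = 0.983. Without PyMT tumours 4 and 5 Acss2 was at 0.0039, and without PyMT/SIRT6 tumour 2 Thrsp turned to 0.10. Elovl5 differed by −0.11 ± 0.10. In the cholesterol branch Mvd differed by 0.13 ± 0.12, Pmvk by 0.12 ± 0.10, Nsdhl by −0.13 ± 0.11 and Lss by −0.07 ± 0.09. Among the regulators Insig1 differed by 0.20 ± 0.13 and Scap by −0.13 ± 0.08, while Srebf1 (−0.04 ± 0.23), Srebf2 (−0.05 ± 0.13) and Insig2 (−0.01 ± 0.15) had differences far smaller than their errors. Missing the threshold does not show that the genotypes were alike, and the error was wide for Thrsp and for Scd1 (0.10 ± 0.38).

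The caseins Csn2 and Csn1s1 varied more between tumours than any of the lipid genes. Csn2, beta-casein, ran from 7.23 in PyMT tumour 3 to 13.68 in PyMT/SIRT6 tumour 3, an 87.6-fold range of intensity, and Csn1s1 from 8.26 to 13.09. The milk score, the mean of 8 centred milk protein genes, was 0.68, −0.66, −0.87, −0.49, −0.51 and −0.04 in PyMT tumours 1 to 6 and 0.02, −0.17, 0.90, 0.88 and 0.26 in PyMT/SIRT6 tumours 1 to 5. The genotypes overlapped, with PyMT tumour 1 and PyMT/SIRT6 tumours 3 and 4 high. Their means were −0.32 (PyMT) and 0.38 (PyMT/SIRT6), so correlations over all 11 tumours do not separate milk level from genotype. Between genotypes Csn2 differed by 2.47 ± 0.90 and Csn1s1 by 1.62 ± 0.71 (limma adjusted p = 0.983 for both). Of 7 tested milk genes 5 were higher in PyMT/SIRT6 tumours and 2 lower. An unadjusted limma p under 0.05 was found for 3 of them (4.43% of all features). The score mainly followed Csn2 (r = 0.98) and Csn1s1 (0.97), which are part of it. For other genes of the score r was 0.74 (Glycam1), 0.70 (Wap), 0.48 (Csn1s2b) and −0.15 (Csn3, at 14.83 to 15.18). Csn1s2a was dim in every tumour (7.19 to 7.31) and did not pass the filter. Lalba, alpha-lactalbumin, had r = 0.42 with the score and ranked the tumours otherwise: it was at 8.96, 8.85, 9.15, 9.75, 10.08 and 9.49 and at 10.28, 10.08, 10.03, 10.63 and 10.30. PyMT tumour 1, high in Csn2 and Csn1s1 but the lowest for Csn1s2b (7.92), was the second lowest for Lalba. Lalba differed between genotypes by 0.88 ± 0.21 (limma adjusted p = 0.741).

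The fatty acid branch did not follow the milk score. In PyMT tumours 4 and 5, where the branch was highest, the milk score was below its median, and in PyMT/SIRT6 tumours 3 and 4, where the milk score was highest, the branch was at 0.02 and −0.09. Over 11 tumours r was −0.24 and Spearman's rho −0.09, with −0.26 without the 2 tumours farthest from the median milk score and −0.18 within the 6 PyMT tumours. Without PyMT tumours 4 and 5 it was 0.39. The cholesterol branch had r = 0.06 and rho = −0.05 (−0.26 without the 2 farthest tumours, −0.09 within PyMT, 0.42 within the 7 tumours low in muscle markers). The regulators had r = −0.42 and rho = −0.34 (−0.33 and −0.35). These are descriptions of scores over chosen genes and carry no p.

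**Figure D3:**
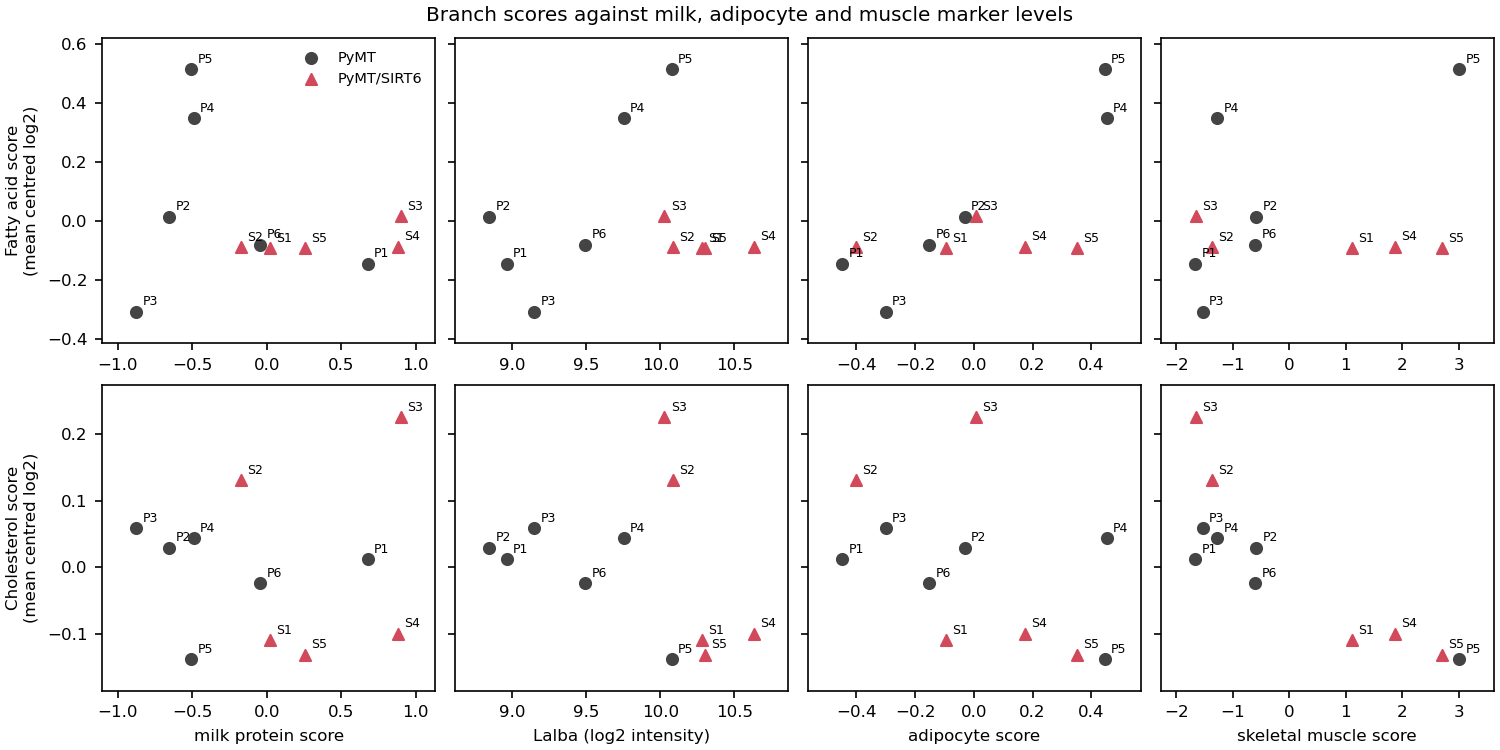
Fatty acid score (top) and cholesterol score (bottom) of each tumour against the milk protein score, Lalba, the adipocyte score and the skeletal muscle score, with PyMT tumours as circles and PyMT/SIRT6 tumours as triangles. PyMT tumours 4 and 5 stand at the top of each upper panel, and the 4 tumours at the right of the muscle panels have the lowest cholesterol scores.

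Gene by gene, in a model with genotype, 0 of 28 members passed the adjusted threshold on the milk score, where 0.0136% of features did; the 2 features that passed were Csn2 and Csn1s1, which are part of the score. At an unadjusted p under 0.05 there were 3 members, where 6.97% of all features had one. Thrsp had a slope of 1.21 ± 0.36 per unit of the score (limma adjusted p = 0.592). Without the genotype term Thrsp had r = 0.40 and rho = 0.61 with the score over 11 tumours. Its r was 0.23 without the 2 tumours farthest from the median milk score and 0.74 within PyMT tumours. Srebf2 had a slope of −0.31 ± 0.11 (limma adjusted p = 0.642) and Insig2 of 0.33 ± 0.13 (limma adjusted p = 0.681). Slopes were positive for 3 of 12 fatty acid members (median −0.18), 7 of 11 cholesterol members (median 0.04) and 2 of 5 regulators (median −0.10), against 7362 of all 14726 features.

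Other fatty acid members had slopes opposite in sign to that of Thrsp: Scd2 −0.22 ± 0.12, Elovl5 −0.17 ± 0.10, Scd1 −0.54 ± 0.38 and Elovl6 −0.26 ± 0.21. In the cholesterol branch the smallest unadjusted p belonged to Nsdhl at −0.15 ± 0.11, Pmvk at 0.12 ± 0.11, Sc5d at 0.04 ± 0.04, Cyp51 at 0.11 ± 0.13 and Dhcr7 at 0.08 ± 0.13. The remaining regulators were Srebf1 at −0.42 ± 0.22, Scap at −0.10 ± 0.08 and Insig1 at 0.12 ± 0.13. Each of these slopes lay within 2 standard errors of 0. Without the genotype term the correlation with the milk score was closest for Elovl5, at r = −0.76 and rho = −0.76 over 11 tumours (−0.77 without the 2 farthest tumours and −0.77 within PyMT). It was followed by Scap at −0.67 and −0.76 (−0.55 and −0.42) and Srebf2 at −0.64 and −0.72 (−0.64 and −0.70). In limma's fit without that term their slopes of −0.17, −0.13 and −0.23 had adjusted p of 0.636, 0.66 and 0.632. A difference of the slope between genotypes passed the threshold for 0 members and 0 of all features (smallest adjusted p 0.819, limma). At an unadjusted p under 0.05 it did for Thrsp, steeper in PyMT/SIRT6 by 1.46 ± 0.64, and Fads2, by −0.52 ± 0.22 (limma adjusted p = 0.960 for both, 4.88% of all features). PyMT/SIRT6 tumour 2 had the lowest milk score of its genotype (−0.17). It was also the lowest of all 11 tumours for Thrsp (9.35) and the highest for Fads2 (8.67).

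Which milk gene was used set the direction of most slopes. With Lalba in place of the score 12 of 12 fatty acid members had a positive slope, against 46.3% of all features, and 10 of 11 cholesterol members a negative slope, against 53.7%. With Csn2 3 of 12 fatty acid members were positive and 4 of 11 cholesterol members negative. On Lalba 0 members passed the adjusted threshold, where 0.149% of features did. At an unadjusted p under 0.05 there were 5 members (11% of all features). Nearest to the adjusted threshold was Elovl6 at 0.88 ± 0.17 per log2 unit of Lalba (limma adjusted p = 0.0560). Acacb had a slope of 0.85 ± 0.30 (limma adjusted p = 0.286), Scd1 of 1.10 ± 0.45 (limma adjusted p = 0.384), Srebf1 of 0.62 ± 0.29 (limma adjusted p = 0.452) and Cyp51 of −0.35 ± 0.16 (limma adjusted p = 0.437).

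For the fatty acid branch the direction on Lalba rested on the same 2 tumours. PyMT tumours 4 and 5 had the highest Lalba among PyMT tumours, and without them 4 of 12 fatty acid slopes were positive (median −0.12 against 0.40 with them). The cholesterol slopes were still negative for 10 of 11 members without them (median −0.31 against −0.16). Without the 4 tumours high in muscle markers 12 of 12 fatty acid slopes were still positive, but 6 of 11 cholesterol slopes were negative. The cholesterol score had r = −0.33 and rho = −0.42 with Lalba over all 11 tumours, −0.68 within PyMT tumours and 0.68 within the 7 tumours low in muscle markers, so its direction turned with the tumours included. Within the 6 PyMT tumours the fatty acid score had r = 0.80 and rho = 0.60 with Lalba, against 0.20 and 0.00 over all 11. The PyMT/SIRT6 tumours, all at 10.03 or above for Lalba, had fatty acid scores within 0.11 of each other.

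**Figure D4:**
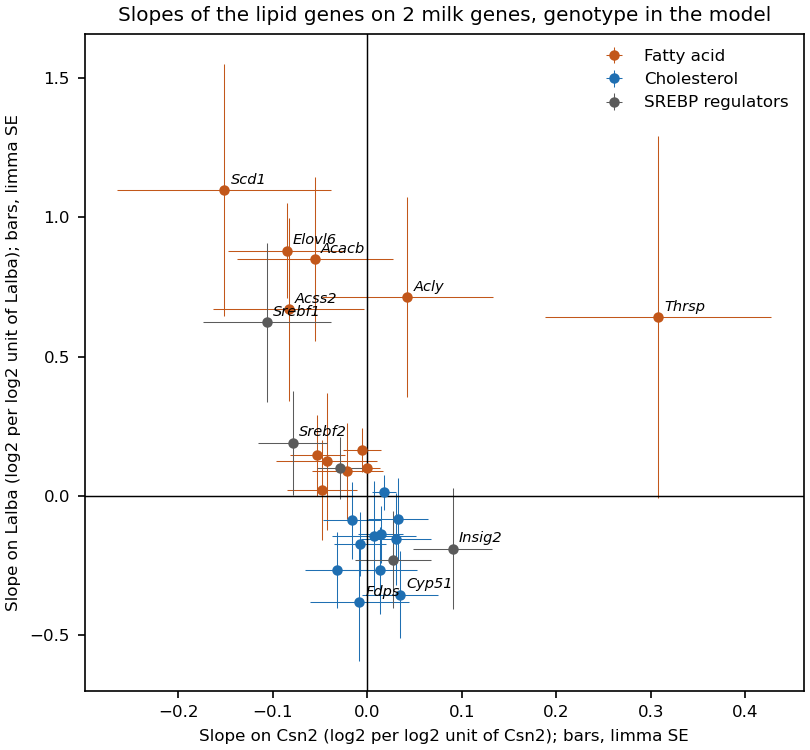
Slope of each tested gene on Csn2 (horizontal) and on Lalba (vertical), in log2 per log2 unit, from models with genotype, with limma's standard error as bars. Fatty acid members lie above 0 on the Lalba axis and mostly left of 0 on the Csn2 axis, with Thrsp to the far right, while all but 1 cholesterol member lie below 0 on the Lalba axis.

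The mean of the genes of milk fat secretion followed the fatty acid score over the tumours, though its genes did not all do so. That list holds coat proteins of the milk fat globule such as Btn1a1 and Xdh, regulators such as Elf5, and other genes such as Folr1, Abcg2 and Cel. It also holds Cidea, Lpl, Cd36 and Fabp3, which fat or muscle cells express too, and 14 of its 15 genes had a probe. Its score had r = 0.75 and rho = 0.65 with the fatty acid score over 11 tumours, 0.76 without the 2 tumours farthest from its median, 0.88 within PyMT tumours and 0.70 without PyMT tumours 4 and 5. The list was highest in PyMT tumours 5 (0.27) and 4 (0.19) and lowest in PyMT tumour 3 (−0.44), where the fatty acid score was also lowest. Gene by gene, 10 of the 14 had a positive r with the fatty acid score, against 48.1% of all features, with a median of 0.26. Lpl (0.82), Cidea (0.80), Stat5a (0.80) and Elf5 (0.65) were the closest, while Plin2 and Mfge8, proteins of the globule coat, were at −0.15 and −0.14 and Cd36 at −0.52. Without Cidea, Lpl, Cd36 and Fabp3 the score of the other 10 genes had r = 0.56 and rho = 0.71. Several genes left in it also moved with the adipocyte score. Their r with that score was 0.64 (Btn1a1), 0.58 (Stat5a), 0.57 (Cel), 0.50 (Elf5), 0.37 (Xdh) and 0.13 (Folr1). It was −0.46 for Mfge8 and −0.15 for Plin2. Of the 11 tested genes of the full list 9 had a positive r with it (46.7% of all features). Btn1a1, butyrophilin, was at 8.58 in PyMT tumour 3 and 9.67 to 10.78 in the other 10. With the luminal epithelial markers the fatty acid score had r = 0.62 and rho = 0.69, and with the mitosis genes −0.53 and −0.46. Whether these correlations differ from that with the milk score was not tested.

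Adipocyte markers moved with the fatty acid branch. The scores had r = 0.74 and rho = 0.66 over 11 tumours, 0.94 within PyMT tumours and 0.40 without PyMT tumours 4 and 5, which had the highest level of both. In the model with genotype and the adipocyte score, 11 of 12 fatty acid members had a positive slope, against 46.8% of all features, and 5 of 12 without those 2 tumours. None passed the adjusted threshold, where 0.224% of features did. At an unadjusted p under 0.05 there were 5 (12.2% of all features): Acacb at 1.17 ± 0.28 per unit (limma adjusted p = 0.140), Scd1 at 1.60 ± 0.43, Elovl6 at 0.81 ± 0.26, Acly at 0.99 ± 0.38 and Acss2 at 0.84 ± 0.36. PyMT/SIRT6 tumour 5 had an adipocyte score of 0.35 and a fatty acid score of −0.09, so high adipocyte markers did not always come with a high branch. The part of fat cells in the level of the fatty acid members was not tested.

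Other genes of these pathways were counted in the same fits. Of 20 further genes of cholesterol synthesis, uptake and efflux 10 were tested, of 29 of fatty acid and triglyceride synthesis 22, and of 13 that control SREBP 12. None passed the threshold between genotypes or on the milk score. Dgat2, which makes triglyceride, was at 10.16 and 10.83 in PyMT tumours 4 and 5 and 7.75 to 9.15 in the other 9. PyMT tumours 4 and 5 were the 2 highest for 4 of the 22 fatty acid and triglyceride genes, Dgat2, Slc25a1, Lpin1 and Agpat2. Slc25a1, the carrier that exports citrate from mitochondria for Acly, was at 10.25 and 10.53 there against 8.97 to 9.49, and differed between genotypes by −0.41 ± 0.24 (limma adjusted p = 0.983). Agpat2, an acyltransferase of the same pathway, was at 9.39 in both against 8.51 to 9.31. Apart from Slc25a1, these genes were picked after the values were seen. As a whole this list did not follow the adipocyte score. Of the 22 genes 11 had a positive r with it (46.7% of all features), with a median of 0.03. The values ran from −0.77 for Gpat4 to 0.79 for Dgat2.

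On the milk score the smallest unadjusted p in the control list belonged to Mbtps1, the protease that makes the first cut in SREBPs, at −0.36 ± 0.11 (limma adjusted p = 0.592), and Erlin2, which helps destroy HMG-CoA reductase, at −0.21 ± 0.09. In the cholesterol list it belonged to Msmo1, a sterol oxidase, at 0.39 ± 0.14 (limma adjusted p = 0.641), and Npc1, which moves cholesterol out of lysosomes, at −0.33 ± 0.13. Between genotypes Ebp, the sterol isomerase, differed by 0.22 ± 0.11, Elovl4, an elongase of very long chains, by −0.13 ± 0.05 and Faf2, which extracts proteins from the endoplasmic reticulum, by −0.15 ± 0.07, each with limma adjusted p = 0.983.

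Several genes had more than 1 probe, and a second probe did not always follow the first. For Nsdhl 2 further probes had r of 0.85 and 0.93 with the brightest and differences of −0.10 and −0.09 between genotypes. For Insig1 the second probe had r = 0.93 and a difference of 0.16, and for Insig2 r = 0.75 and 0.01. Dim second probes of Acss2 (mean 7.34), Srebf2 (7.78) and Scap (7.56) had r of −0.03, −0.11 and 0.11 with the first, and that of Fdps (7.43) had −0.51. Values of these 4 genes rest on the first probe alone. The dim Scap probe differed between genotypes by 0.08, against −0.13 for the first. Only 1 probe was found for Acly, Me1, Acaca, Fasn, Elovl5, Scd1, Scd2, Mvk, Pmvk, Mvd, Idi1, Cyp51, Sc5d and Dhcr7. Second probes of Acacb, Srebf1, Hsd17b7 and Elovl6 had r of 0.26, 0.28, 0.31 and 0.39. Those of Fads1, Lss, Fads2 and Thrsp were at 0.46, 0.48, 0.51 and 0.75. For Sqle the second probe (mean 8.72) had r = 0.43 and a genotype difference of 0.05, against −0.03 for the first.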

How the data were processed

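Total RNA of 11 tumours was labelled as biotinylated cRNA and read on Illumina Mouse WG-6 v2.0 chips, per the labels' protocols. The authors deposited linear probe intensity values; the labels do not say how they were normalized or background-corrected. Sorted values of the arrays agreed within 1.08%, with array medians of 157.5 to 157.6 and a lowest intensity of 117, so no further scaling was applied. The deposited intensities were put on the log2 scale. The number of arrays limits the precision, and the labels name no slide or scan date.

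Of 45281 probes 34885 had a single symbol in the platform annotation, 18 several and 10378 none. The probe with the highest mean was kept per gene, unnamed probes stayed as features (29453 in all), and the lower 50% by mean was left out, at a limit of 7.31, leaving 14726. The fits used limma 3.58.1 in R 4.3.3 (lmFit, eBayes with trend, Benjamini-Hochberg over all 14726 features, threshold 0.05): genotype alone, then genotype with the milk score, then their interaction. The script was tested on simulated data. Correlations were computed in Python 3.11.15. The members and gene lists were chosen with earlier results of these data known. Values in every tumour are given for the 5 regulators, and by branch for up to 5 members with the smallest unadjusted p in the milk fit and 4 in the genotype fit; Acacb, Me1, Fdps and other members were added after their values were seen. Other pathway genes are named by up to 4 of smallest p per list. Alternatives were other filters (none, lower 25%, lower 75%), the mean of a gene's probes, normexp with an offset of 16, eBayes without trend or robust, array weights, adipocyte, muscle or lymphocyte covariates, caseins, Lalba or Csn2 as the milk score, no genotype term, and each array left out. Chosen after seeing the data were the adipocyte or muscle score in place of the milk score and leaving out the 4 arrays high in muscle markers (list mean above 9) or the 2 highest in adipocyte markers, and the milk fat secretion score without 4 genes of fat or muscle cells.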

Additional observations from a re-analysis of the deposited data

Results flagged for a closer look

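In 68 groups of 5 or 6 tumours, over the 30 members, the 3 branch scores and the milk score, 4 had 1 tumour set apart from the rest of its group by Dixon's criterion, which chance alone gives in about 1 of 20 groups. Mvk, mevalonate kinase, was at 7.90 in PyMT/SIRT6 tumour 3, and the next tumour of that genotype was at 7.74. Lss, which closes the sterol rings, was at 8.34 in PyMT/SIRT6 tumour 2, and the next was at 7.99. Srebf2 was at 8.84 in PyMT/SIRT6 tumour 2, and the next was at 8.49. The fatty acid score was 0.016 in PyMT/SIRT6 tumour 3, and the other 4 lay between −0.0921 and −0.0877. For the score the gap is large against a very narrow group rather than in absolute size, since PyMT tumours ran from −0.31 to 0.51. No cause was tested.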

How the results depend on the processing

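No paired analysis was possible because the labels give no replicate numbers. The count of 0 members past the threshold held under all 24 alternatives between genotypes, all 30 on the milk score and all 14 for the slope by genotype. Leaving out each tumour in turn gave genotype medians of −0.15 to −0.014 (fatty acid), −0.042 to 0.030 (cholesterol) and −0.13 to 0.036 (regulators), correlations with the milk score of −0.56 to −0.056, −0.38 to 0.23 and −0.64 to −0.33, and median pairwise r of 0.30 to 0.53, 0.34 to 0.51 and −0.62 to −0.29, with −0.056 to 0.098 between branches. Without the 4 tumours high in muscle markers the genotype median was 0.065 for the fatty acid branch and 0.12 for the cholesterol branch, and without the 2 highest in adipocyte markers it was 0.032 for the fatty acid branch, so the sign of these medians changed with the tumours included. Some single omissions reversed the genotype difference of Insig2 (range −0.097 to 0.064), Srebf1 (−0.18 to 0.13), Srebf2 (−0.13 to 0.036) and Thrsp (−0.69 to 0.10), and the milk slope of Scd1 (−0.94 to 0.021), Elovl6 (−0.35 to 0.049) and Dhcr7 (−0.045 to 0.16). The genotype difference reversed with the lymphocyte covariate for Srebf1 (0.10), Srebf2 (0.0086) and Insig2 (0.024), with the muscle covariate for Insig2 (0.067), without the 2 tumours highest in adipocyte markers for Srebf1 (0.12), Srebf2 (0.033) and Acss2 (0.0039), and without the 4 tumours high in muscle markers for Srebf1 (0.10), Srebf2 (0.14), Nsdhl (0.026) and Lss (0.068), where the regulators' median was 0.10. With Lalba as the milk score the slope reversed for Srebf1 (0.62), Srebf2 (0.19), Scap (0.10), Insig1 (−0.23), Insig2 (−0.19), Scd2 (0.021), Elovl5 (0.15), Scd1 (1.10), Elovl6 (0.88), Pmvk (−0.083), Cyp51 (−0.35) and Dhcr7 (−0.16), and r was 0.20 for the fatty acid branch, −0.33 for the cholesterol branch and 0.27 for the regulators. Without the 2 tumours highest in adipocyte markers r of the fatty acid branch with the milk score was 0.39, the median pairwise r was 0.086 within that branch and 0.14 between branches, and positive fatty acid slopes numbered 4 of 12 on Lalba and 5 of 12 on the adipocyte score. Without the 4 tumours high in muscle markers the cholesterol median r was 0.25, and negative cholesterol slopes numbered 6 of 11 on Lalba and 7 of 11 on the muscle score. The causes were not tested. Dim probes, such as those of Fasn, Acaca and Idi1, limit what can be said of those genes.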
